A study of Homo sapiens with 6 samples.

Results

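Heat shock proteins and chaperonins were examined in a total RNA-seq experiment on MDA-MB-231, a triple-negative breast cancer line of mesenchymal character. The members were the rows whose gene symbol belongs to the HSP90, HSP110, HSP70, small HSP, HSPD1/HSPE1, TRiC (CCT and TCP1), DNAJ or BAG families. There were 71 of them among 15917 listed genes. The rule reads the symbol only and uses no measured value, although the families were picked with earlier results of these data known.

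The experiment asked which transcripts depend on the RNA-binding protein RBMS3. It comprised 6 libraries in 3 groups of 2 biological replicates, namely shCTRL cells with the genotype WT, and cells carrying the hairpin shRBMS3-B3 or shRBMS3-C3 against RBMS3. All were MDA-MB-231 cells under the same culture conditions, and the study's hairpins were delivered by lentivirus in a puromycin-selected plasmid. The only measurement used here was 1 number per gene, the mean normalized count that the authors obtained over libraries. Knockdown and control cells are mixed in that mean, and which of the 6 libraries entered it is not stated, and the study describes its comparison with fewer libraries than the labels list, so the mean may not cover all of them. The authors' own comparison of knockdown with control, in the same table, was set aside. Consequently no value below compares knockdown with control, none has a replicate spread, the depth of the libraries is unknown and the pooled mean allows no test. A difference between genes is therefore given as a ratio without an error, and small ratios cannot be told from replicate noise.

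Molecular chaperones bind unfolded or partly folded proteins and keep them from aggregating. HSP70 proteins hold short hydrophobic stretches in a cycle of ATP binding and hydrolysis. J-domain proteins (DNAJ) bring them substrates and stimulate hydrolysis, and HSP110 and BAG proteins exchange their nucleotide. HSP90 acts later, on near-native clients such as kinases and steroid receptors. Chaperonins are barrels that enclose a substrate, with HSPD1 and its lid HSPE1 in mitochondria and the TRiC complex in the cytosol, where actin and tubulin are its best known clients. Many of these genes are induced by the transcription factor HSF1, and cancer cells are known for high chaperone levels.

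RBMS3 itself, the targeted gene, was listed with an authors' mean of 272, at percentile 43.3 of the listed genes, and per kb of its transcript of 8449 bases it stood at 32.1, at percentile 17.3. Since that mean pools knockdown and control libraries, it is no check of the knockdown.

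The listed chaperone genes were mostly among the abundant transcripts. Their authors' means ran from 46.6 for HSPA1L to 44458 for HSPA8, with a median of 1263, whereas the median of all listed genes was 364. Of the 71 members, 54 lay above that median and 17 at or below it. At or above percentile 90 were 22 members, and 3 (HSPA8, HSP90AB1 and HSP90AA1) were at or above percentile 99. Against the 12408 listed protein-coding genes, whose median was 526, 49 members were above the median.

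**Figure D1:**
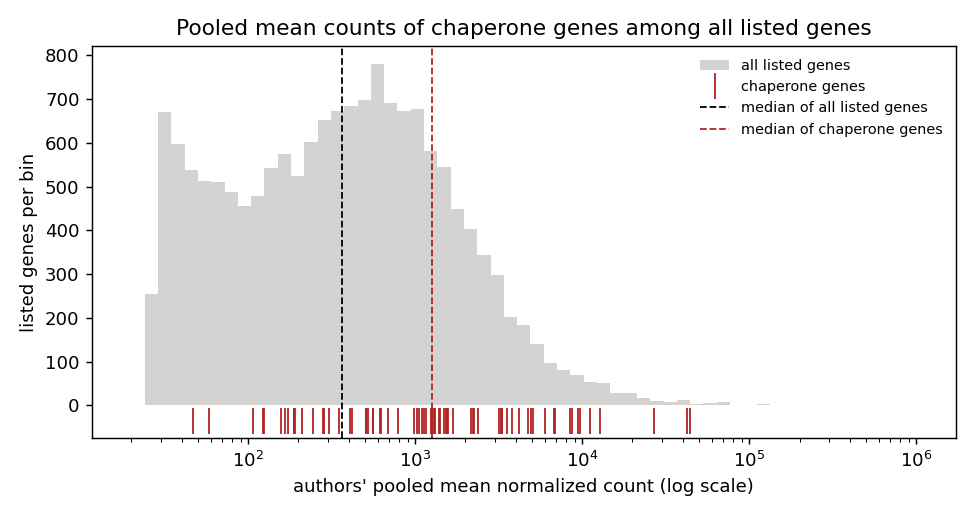
Histogram of the authors' pooled mean normalized count (log axis) over all 15917 listed genes in grey, with 1 red tick for each of the 71 chaperone genes and dashed lines at both medians. The chaperone ticks spread over most of the range, and their median of 1263 lies to the right of the median of 364 for all listed genes.

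Because longer transcripts yield more fragments, levels of different genes were compared per kb of the representative transcript, and all levels from here on are authors' means per kb. Undivided means are named as such, and describe amounts of counts. On that scale the members' median was 441, compared with 152 for listed protein-coding genes, and 47 members exceeded the latter. Members made up 0.572% of the listed protein-coding genes and 1.47% of their summed level per kb.

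**Figure D2:**
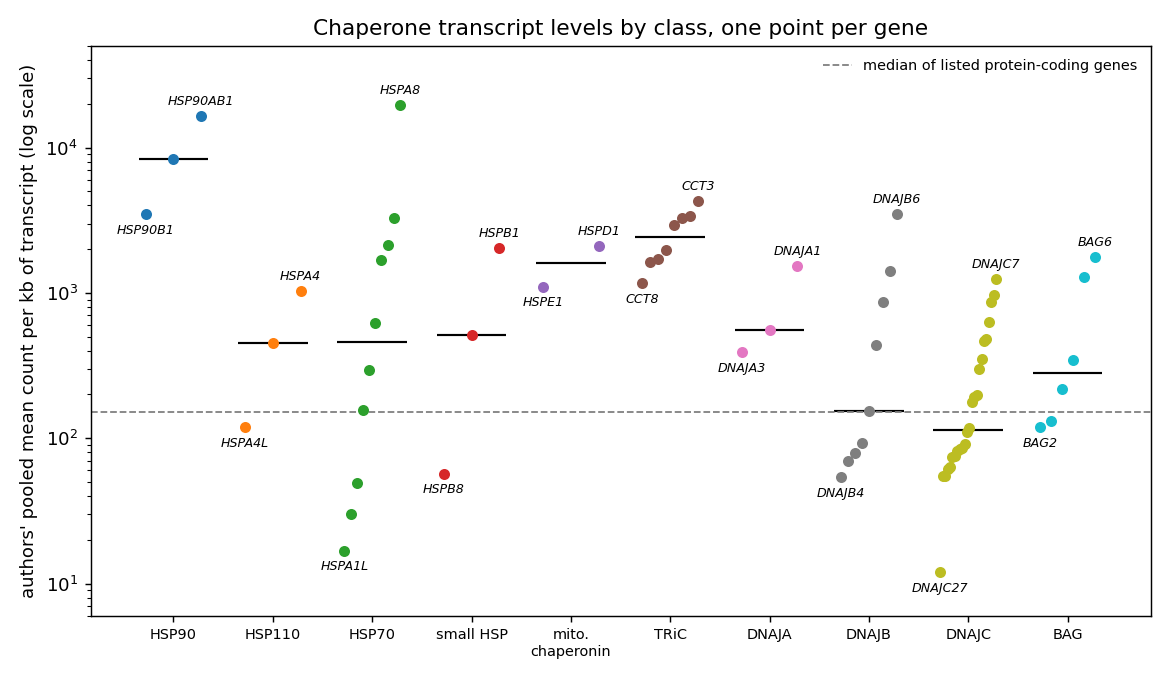
Authors' pooled mean count per kb of transcript (log axis) for each chaperone gene, grouped by class, with a black bar at each class median and a dashed line at the median of listed protein-coding genes (152). All HSP90, TRiC, mitochondrial chaperonin and DNAJA genes lie above the dashed line, whereas HSP70, DNAJB and DNAJC genes lie on both sides of it.

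A few genes carried much of the total. HSPA8, HSP90AB1 and HSP90AA1 together held 42.9% of the summed level per kb of the 71 members. By class, the 3 HSP90 genes accounted for 27.3%, the 10 HSP70 genes for 26.9% and the 8 TRiC genes for 19.5%. The 24 DNAJC genes together accounted for 6.60% and the 9 DNAJB genes for 6.43%. The remaining classes were smaller, at 3.72% for BAG, 3.10% for the mitochondrial chaperonin, 2.51% for small HSP, 2.39% for DNAJA and 1.54% for HSP110.

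**Figure D3:**
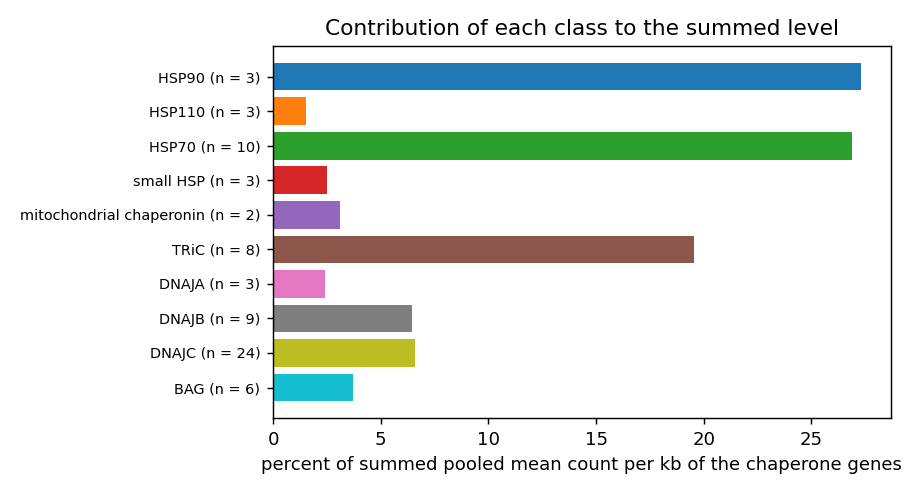
Share of each chaperone class in the summed pooled mean count per kb of the 71 chaperone genes, in percent, with the number of genes in each class. HSP90 (27.3%), HSP70 (26.9%) and TRiC (19.5%) have the longest bars, and DNAJC, with the most genes (24), has 6.60%.

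All 3 HSP90 genes among the members were high. TRAP1, the mitochondrial HSP90, falls outside the symbol rule and was listed at 1002 per kb. HSP90AB1, the constitutive cytosolic form (chr6:44246166-44253888 on GRCh38, plus strand), stood at 16527 per kb. HSP90AA1, the stress-inducible cytosolic form (chr14:102080742-102139699, minus strand), stood at 8337, so that the level of HSP90AB1 was 1.98 times that of HSP90AA1. HSP90B1, the form of the endoplasmic reticulum (ER), was at 3480.

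The HSP70 class had the widest range, 1164-fold from HSPA1L to HSPA8. HSPA8, the constitutive cytosolic HSP70 (chr11:123057489-123063230, minus strand), had the highest level of all members at 19637 per kb. The HSP70 of the ER, HSPA5, stood at 3268, and the mitochondrial HSP70, HSPA9, at 2138. Thus, the cytosolic transcript was 6.01 times the ER one and 9.18 times the mitochondrial one per kb, and 3.47 and 4.72 times without division by length. At the other end were HSPA12A, a distant relative of the family, at 30.1 and HSPA1L at 16.9.

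The stress-inducible HSP70 is encoded by 2 near-identical single-exon genes on chromosome 6, HSPA1A (chr6:31815543-31817946) and HSPA1B (chr6:31827738-31830254), both on the plus strand with start sites 12195 bases apart. HSPA1B was listed at 1672 per kb and HSPA1A at 624. The split between them is uncertain, since 76.9% of the 31-base words of the HSPA1A transcript also occur in transcripts of other genes, and for HSPA1B this share was 74.5%. The sum of their means, 5705, does not depend on how reads were divided between the pair. Their summed level was 2296 per kb, and HSPA8 was 8.55 times that sum. HSPA1L lies head to head with HSPA1A, with 260 bases between the start sites on opposite strands, and only 4.10% of its 31-base words are shared. The ratio of HSPA1B alone to HSPA1L was 99.1, and this ratio shares the uncertainty of the split.

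HSPA2, HSPA13 and HSPA14 were the remaining listed HSP70 genes, with levels from 48.9 to 295.

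Among the HSP110 genes, nucleotide exchange factors that are themselves HSP70 relatives, HSPA4 stood at 1030, HSPH1 at 451 and HSPA4L at 119. The BAG genes ranged from 119 for BAG2 to 1757 for BAG6, which acts in the delivery of tail-anchored membrane proteins. BAG3, a partner of HSPB8 in selective autophagy, was at 1292. BAG1, BAG5 and BAG4 lay between, at 343, 218 and 132. Without division by length BAG4 was the lowest BAG gene, with a mean of 555 beside 794 for BAG2. The summed level of the 10 HSP70 genes was 7.53 times that of the 8 exchange factor genes, HSP110 together with BAG1 to BAG5. Without division by length it was 4.76 times. The 10 include HSP70 genes of the ER and mitochondria, whereas exchange factors outside the symbol rule were not counted. Among those listed were HYOU1 at 2300, SIL1 at 642, HSPBP1 at 597, GRPEL1 at 427 and GRPEL2 at 86.2. Hence the ratio holds for the listed members only, not for all exchange factors.

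The J-domain genes were 36 in number, and the summed HSP70 level was 1.74 times theirs. In the DNAJA class, whose members resemble bacterial DnaJ, DNAJA1 stood at 1533, DNAJA2 at 558 and the mitochondrial DNAJA3 at 390. In the DNAJB class, DNAJB6, known to suppress aggregation of polyglutamine proteins, was highest at 3513 and 2.49 times DNAJB1. DNAJB1, the main heat-inducible cytosolic J-protein, was at 1411, followed by the ER protein DNAJB11 at 862 and DNAJB12 at 441. The lowest were DNAJB14 at 69.8 and DNAJB4 at 54.2, and the other 3 lay between 78.5 and 154. The place of DNAJB14 rests on the scale. Its undivided mean of 417 was above that of DNAJB2, 285, whereas DNAJB4 was lowest on both, with a mean of 157.

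The DNAJC class groups proteins that share little beyond the J domain, and its median of 114 was below the median of listed protein-coding genes. Without division by length the class median was 623, above 526 for listed protein-coding genes, so the direction rests on the scale. DNAJC7, a co-chaperone with tetratricopeptide repeats, was highest at 1250. DNAJC9, a histone chaperone, was at 973, DNAJC8, found with spliceosomes, at 866, and DNAJC5, the cysteine string protein of secretory vesicles, at 628. Lowest were DNAJC22 at 54.8 and DNAJC27 at 12.1, the lowest level of any member. The other 18 lay between 55.2 and 484.

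The small heat shock protein HSPB1 stood at 2036 per kb and HSPB8 at 57.1, a ratio of 35.7 (14.9 without division by length). HSPB11, which the annotation names IFT25 and which is known as a subunit of intraflagellar transport, was at 509. The HSPB8 locus also holds a listed processed pseudogene on the same strand, with an authors' mean of 587 beside 106 for HSPB8 itself.

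In mitochondria, HSPD1 was at 2112 and HSPE1 at 1104 per kb. On chromosome 2, HSPE1 (chr2:197500140-197503449, plus strand) lies within the annotated span of HSPD1 (chr2:197486584-197516737, minus strand). The start sites of their representative transcripts are 539 bases apart on opposite strands. Without division by length HSPD1 was 7.71 times HSPE1, and per kb it was 1.91 times HSPE1, whose transcript has 557 bases. The level of HSPE1 is uncertain, since 55.0% of its 31-base words occur in other genes' transcripts, among them the readthrough gene HSPE1-MOB4, and the share for HSPD1 was 50.9%. Relative to HSPA9, the mitochondrial HSP70, HSPD1 had a ratio of 0.988 per kb and 0.503 without division by length.

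TRiC is a double ring with each of its 8 different subunits present once per ring, so its subunits are needed in equal numbers. The transcripts were not listed at equal levels. CCT3 was highest at 4278, followed by CCT5 at 3373, CCT7 at 3255 and CCT4 at 2911. CCT6A stood at 1957, CCT2 at 1715, TCP1 at 1625 and CCT8 at 1171. Without division by length CCT5 was highest with a mean of 11107, ahead of CCT3 at 8458. The order thus rests in part on the scale, although CCT8 was lowest on both. The mean over subunits was 2536 with an SD of 1075 (n = 8 subunits, which are genes and not replicates), a coefficient of variation of 42.4%, and CCT3 was 3.65 times CCT8. Even CCT8 was at percentile 91.1 of listed genes per kb. Sharing of 31-base words was 0% for CCT3 and CCT2, 24.4% for TCP1 and 25.3% for CCT8, and its part in the order was not tested.

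**Figure D4:**
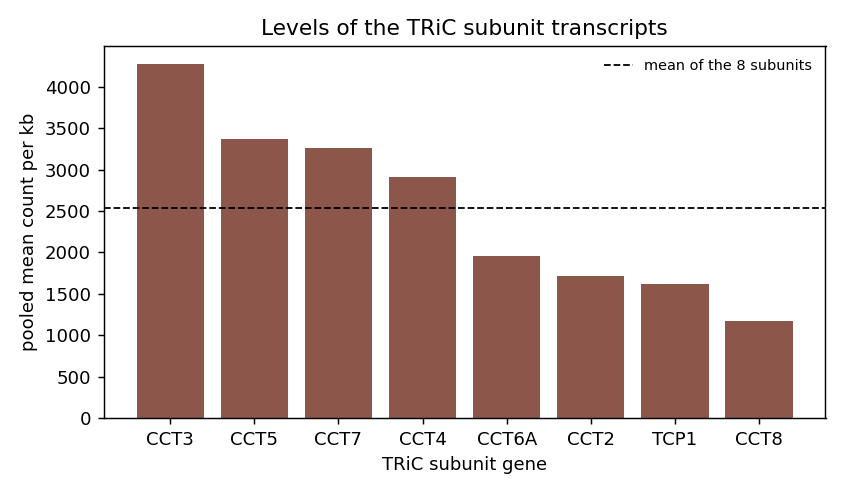
Authors' pooled mean count per kb for the 8 TRiC subunit genes, with a dashed line at their mean (2536). CCT3, CCT5, CCT7 and CCT4 are above the line, and CCT6A, CCT2, TCP1 and CCT8 are below it, down to 1171.

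Sharing of sequence with other genes was not limited to these pairs. Over the 71 members, 4 (HSPA1A, HSPA1B, HSPE1 and HSPD1) shared more than 50% of their 31-base words with transcripts of other genes, and 23 shared less than 1%. The 3 highest members came close to that cut, with 44.7% for HSPA8, 42.0% for HSP90AB1 and 39.3% for HSP90AA1. Their levels, ratios and summed share carry this limit too, and its size was not tested. The table also listed 17 processed copies or other pseudogenes of 11 members. As amounts of counts, not divided by length, and named after their values were seen, DNAJC19P9 had 72.2% of its parent's mean, HSPE1P2 39.0% and HSPB1P1 36.7%. The 5 listed copies of HSPA8 together had 0.957% of its mean. In addition, 29 members overlapped another listed gene, 10 of them on the same strand, where reads cannot be separated by strand. Among the latter, the small nucleolar RNA gene SNORD14C lies within HSPA8 with a mean of 1345, and SNORA20 within TCP1 with a mean of 168. No share over all listed genes is given beside the counts of overlap and word sharing. They are limits on the members' levels and do not set the members apart from other genes.

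Promoter sequences were then searched for the heat shock element, the site of HSF1, which is built of alternating GAA and TTC units. A window of 300 bases (250 before to 50 after a RefSeq start site on GRCh38.p14) was at hand for 65 members, not for BAG4, CCT6A, DNAJC1, DNAJC22, DNAJC24 and HSPA14. A pair of units, GAA and TTC in either order with any 2 bases between them, read on both strands, occurred in 19 of 65 (29.2%), compared with 1005 of 10646 listed genes with a window (9.44%) and 13.5% of all 35116 windows. Of the longer element with 3 alternating units at the same spacing (GAA, TTC, GAA or TTC, GAA, TTC), which by construction also counts among the pairs, there were matches in 5 of 65 members (7.69%), in 33 listed genes (0.310%) and in 0.490% of all windows. Both counts depended on which RefSeq window of a gene was read. The window nearest the start of the representative transcript was adopted after counts with the first-listed window had been seen, and those were 13 of 65 (20%) for the pair, with 9.91% of listed genes, and 3 of 65 (4.62%) for 3 units, with 0.310%. The listed genes in these counts include the members, so the 5 are among the 33, and the same holds for the ER stress element below. A match is a stretch of letters and not evidence of binding.

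The 5 members with the longer element are printed 5′ to 3′ on the strand of the gene with the element in capitals, since they hold the longer and rarer form of the element. The positions are those of the printed stretch on GRCh38.p14, chr9:33025256-33025308 (plus) for DNAJA1, chr7:157336853-157336905 (plus) for DNAJB6, chr11:123062159-123062386 (minus) for HSPA8, chr14:102087100-102087152 (minus) for HSP90AA1 and chr2:197500048-197500090 (minus) for HSPD1.
DNAJA1: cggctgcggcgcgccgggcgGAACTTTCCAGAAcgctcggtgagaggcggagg
DNAJB6: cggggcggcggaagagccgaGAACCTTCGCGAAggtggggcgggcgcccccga
HSPA8: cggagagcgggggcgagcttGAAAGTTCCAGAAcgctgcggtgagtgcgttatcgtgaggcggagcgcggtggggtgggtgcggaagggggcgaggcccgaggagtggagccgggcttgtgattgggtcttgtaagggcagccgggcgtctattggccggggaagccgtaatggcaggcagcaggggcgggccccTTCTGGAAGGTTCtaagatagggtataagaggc
HSP90AA1: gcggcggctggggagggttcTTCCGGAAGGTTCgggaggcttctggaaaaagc
HSPD1: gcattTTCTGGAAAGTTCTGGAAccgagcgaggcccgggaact

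HSPA8 had 2 such elements, which begin 230 and 55 bases before its start site. In HSPD1, 2 overlapping matches form a single run that begins 245 bases before the start, in the stretch between the HSPD1 and HSPE1 start sites. The element of DNAJB6 begins 131 bases and that of HSP90AA1 88 bases before the start, whereas that of DNAJA1 begins within the transcript, at position 4 counted from 1 at the start site. These 5 genes had levels from 1533 to 19637 per kb, with a median of 3513, and the other 60 members with a window had a median of 369. The 19 members with the unit pair had a median of 1533, but their levels began at 16.9, for HSPA1L, and HSP90AB1 had no match at 16527. The same match counts for 2 members, since HSPA1A and HSPA1L share these 8 bases (chr6:31815437-31815444) between their start sites. Over all listed genes with a window the medians were 151 with the pair and 151 without it, and 202 with the 3-unit element and 151 without it.

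HSPA5 and HSP90B1, the HSP70 and HSP90 of the ER, were the only members of 65 with the ER stress element, CCAAT and CCACG with 9 bases between them on either strand, a site of the ATF6 branch of the unfolded protein response. This motif was added after levels had been seen, and 16 listed genes (0.150%) and 0.0769% of all windows held it. The stretches, with the element in capitals, lie at chr9:125241371-125241429 (minus) and chr12:103930196-103930359 (plus), and the latter has a further match on the opposite strand. The ratio of HSP90B1 to HSPA5 was 1.06 per kb and 0.755 without division by length, so its direction rests on the scale.
HSPA5: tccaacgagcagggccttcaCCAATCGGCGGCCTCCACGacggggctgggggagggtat
HSP90B1: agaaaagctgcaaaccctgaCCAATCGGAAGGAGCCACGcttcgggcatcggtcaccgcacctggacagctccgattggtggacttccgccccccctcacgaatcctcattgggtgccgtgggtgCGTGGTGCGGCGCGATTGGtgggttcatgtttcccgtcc

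RBMS proteins are known to bind AU-rich sequence in 3′UTRs, so the 3′UTR of each representative transcript was searched for a 7-base AUA motif (A, G or T, then A or T, then ATA, then A or T, then A). It occurred in 62 of 71 members (87.3%) and in 10477 of 12350 listed protein-coding genes with a 3′UTR (84.8%). At least 3 matches were found in 52.1% of members and 53.1% of listed genes. Thus, by presence of the motif the chaperone 3′UTRs were near the background. The motif overlaps the polyadenylation signal AATAAA, and with matches that hold that signal left out (a choice made after the data were seen) the shares were 64.8% and 62.4%. Of the 62 members, 16 had only such matches. Matches per kb of 3′UTR were 3.16 in members and 2.79 in listed genes, and the median A+U content was 62.8% and 57.9%.

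The 9 members without a match, named after their counts were seen, were DNAJB1, DNAJB2, DNAJC4, DNAJC14, DNAJC30, HSPA1L, HSPA5, HSPB11 and CCT3. Length bore on presence. With the listed genes divided by 3′UTR length into 4 bins of about equal size, the bin of shortest 3′UTRs (up to 535 bases) had the motif in 18 of 22 members (81.8%) and 63.7% of listed genes, while in the bin of longest 3′UTRs it was 13 of 13 members (100%) and 98.2%. In the bins between it was 87.5% of 16 and 85.0% of 20 members, beside 83.6% and 93.9% of listed genes.

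**Figure D5:**
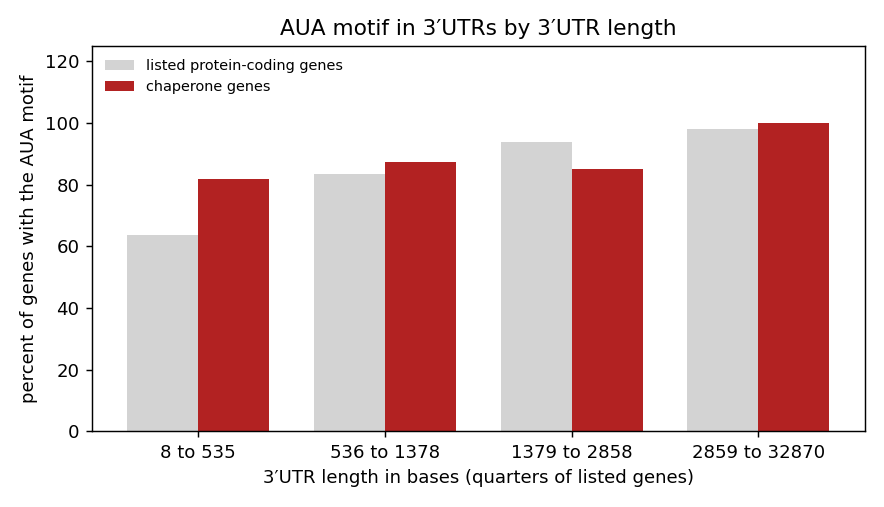
Percent of genes with the AUA motif in the 3′UTR, for listed protein-coding genes (grey) and chaperone genes (red), in 4 bins of 3′UTR length in bases. The grey bars climb from 63.7% to 98.2% with length, and the red bars lie between 81.8% and 100% with 13 to 22 genes each.

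The sites in the 3 highest members are shown with the motif in capitals, as they differ in whether they include the polyadenylation signal. HSPA8 has 2 (chr11:123057542-123057570 and chr11:123057503-123057531, minus), HSP90AB1 has 1 (chr6:44253846-44253874, plus) and HSP90AA1 has 1 (chr14:102081644-102081672, minus).
HSPA8, first: aacattgcactTTATAAAcactgtattgt
HSPA8, second: tgcaatgtcttAAATAAAactatttaaaa
HSP90AB1: taaagtatgcaAAATAAAgaatatgccgt
HSP90AA1: aattcctctgaTAATATAttttcaaggat

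The site of HSP90AB1 and the second site of HSPA8 hold AATAAA close to the end of their 3′UTRs, at position 259 of 285 and position 214 of 245. The first site of HSPA8 (position 175) and that of HSP90AA1 (position 51 of 970) do not hold it.

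Among 52 other genes of the chaperone system (co-chaperones, prefoldin, heat shock factors, ER and mitochondrial folding factors), 51 were listed and 46 lay above the median mean of all listed genes. Their median level was 597 per kb. Highest were CALR, the ER lectin chaperone calreticulin, at 14898, the HSP90 kinase co-chaperone CDC37 at 5181, and calnexin (CANX) at 4320. Lowest were SUGT1 at 63.9, the heat shock factor HSF4 at 52.1 and CDC37L1 at 22.0. The place of SUGT1 rests on the scale, since its transcript has 14161 bases. Its undivided mean of 905 was above the median of 364 for all listed genes. Likewise, the undivided mean of CDC37, 8384, was below that of HYOU1, 10576.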

How the data were processed

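Total RNA of MDA-MB-231 cells (2 shCTRL, 2 shRBMS3-B3 and 2 shRBMS3-C3 libraries) was sequenced after ribosomal cDNA depletion with a stranded low-input kit. The submitters' processing notes name Salmon, DESeq2 and hg38, with versions not given for these libraries in the sources used here. The authors deposited 1 table with, per gene, the mean normalized count over libraries (a signal, used here as the authors' mean) and 5 columns of their own comparison (log2 fold change, its error, the statistic, p-value and adjusted p-value), which were not used. The table has 0 other columns of per-sample values. The depth per library is unknown, so no interval or floor was given, and no test between groups was run on the pooled mean, and p-values are absent throughout.

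Gene IDs were matched to GENCODE release 44 on GRCh38 (15829 of 15917 matched). Means were divided by the length of the MANE Select transcript, which all 71 members have. A further 14 coding genes of these families in the annotation were not found among the listed genes. Counts, ranges and shares therefore describe listed members only. Shared sequence was counted as 31-base words found in other genes' transcripts. Promoter windows came from RefSeq (GRCh38.p14), and 62 of 65 lay within 100 bases of the representative start. All 11 printed stretches matched the genome. Motif searches were tested on simulated sequence. The protein motifs that had been planned were not searched. Python 3.11.15, pandas 2.3.3, numpy 2.4.6 and matplotlib 3.10.9 were used.

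Named genes were all members of HSP90, HSP110, the mitochondrial chaperonin and TRiC, in the other classes the 4 highest and 2 lowest per kb (all where a class has 6 or fewer), members with the 3-unit element, near-identical pairs, RBMS3, and the 3 highest and 3 lowest other chaperone genes. Other genes named (members without a window or a motif match, the remaining HSP70 genes, pseudogenes, overlapping genes, TRAP1 and further exchange factors) fall outside that rule and were chosen after their values were seen. Members and lists were chosen with earlier results of these data known. The ER stress element, word sharing, pseudogenes, overlaps and 3′UTR length bins were added after the data were seen, as were the choice of promoter window and 3 alternatives.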

Additional observations from a re-analysis of the deposited data

How the results depend on the processing

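No paired analysis was possible because the only measurement used is a pooled mean without per-library values, and for the same reason no replicate could be left out and no count model run. Of 42 alternative values, 34 stayed within 1.5 times the main value or, for shares of members, inside the exact 95% binomial interval of the main share, and 8 moved. The 34 include the class shares without HSPA1A and HSPA1B, which could hardly move because the pair held little of the summed level. Even the HSP70 share went only from 26.9% to 25.2%, so these values say little about stability. The share of members with a heat shock element was 7.69% with 3 alternating units in place of 29.2% with a pair. The share with the AUA motif was 52.1% with at least 3 matches and 64.8% without matches that hold AATAAA, in place of 87.3%. With no division by length the HSP110 share of the summed level was 3.13%, that of small HSP 0.745% and that of the mitochondrial chaperonin 1.96%. With the longest transcript the mitochondrial chaperonin share was 2.05% and that of DNAJB 3.02%.

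Of the alternatives, 3 were chosen after seeing the data. A first count read the first-listed promoter window of each gene, which gave 20% of members and 9.91% of listed genes with the unit pair, and the nearest window, used since, raised the members' share to 29.2%. The planned background of all listed genes was kept, and with protein-coding listed genes alone it was 9.32% in place of 9.44%. The planned searches of protein sequence were not run, for want of a protein table. What limits every value is that the pooled mean has no error and mixes knockdown and control libraries.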
